A study of Mus musculus with 12 samples.

Results

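The comparison described here is AE exercise against no exercise in mice kept on a high-fat diet, in 6 of the 12 liver RNA-seq libraries of the series: HFD+AE 1, 2 and 3 against HFD 1, 2 and 3. The libraries were chosen by their labels, and all 18305 genes with enough counts to test, of 55291 in the table, were compared. The tissue was liver of male mice of the inbred strain C57BL/6, which gains fat readily, and the labels name no genetic change in any group. The mice were 6 weeks old at the start and, after adaptation, received either normal chow (NC) or the lard-based high-fat diet D12492. After 8 weeks on the high-fat diet, mice either stayed sedentary (HFD) or began AE or RE exercise for at least 12 weeks with the same food (HFD+AE, HFD+RE). The labels do not spell out AE and RE, which in exercise studies usually stand for aerobic and resistance exercise. Whether each library stands for another animal is not stated, so every p-value below measures only how far these samples spread, and that spread may be technical.

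As background, long feeding of fat fills mouse hepatocytes with triglyceride, which is stored in droplets coated by perilipins and CIDE proteins, and draws immune cells into the tissue. Hepatocytes oxidise fatty acids in mitochondria and peroxisomes, export lipid in lipoproteins, turn cholesterol into bile acids and detoxify foreign compounds with cytochromes P450. Many of their enzymes differ between the sexes under the pulsed growth hormone secretion of males. Endurance exercise is known to lower liver fat in obese rodents.

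Total counts were 44839783, 44373214 and 60308552 in HFD 1, 2 and 3 and 65434486, 55922691 and 56555392 in HFD+AE 1, 2 and 3. The liver identity of the 6 libraries was plain: Alb, the gene of serum albumin, took 4.25% to 8.51% of the counts, while no skeletal muscle marker exceeded 9 counts in any library. The groups also differed in measures of the whole library. Mitochondrial ribosomal RNA took 1.76% to 3.26% of the counts in HFD and 0.771% to 0.867% in HFD+AE. For trends across genes, each gene's log2 level was taken relative to its mean over all 12 libraries. The rank correlation of this relative level with gene length lay between -0.29 and -0.15 in HFD. HFD+AE 1 and 2 were at 0.29 and HFD+AE 3 at -0.03. HFD+AE 3 stood apart from HFD+AE 1 and 2, with a rank correlation of relative level with GC content of 0.48 against -0.28 and -0.24. The part of these measures in the results below was not tested, and, as the labels give no batch or date, a batch that followed the groups cannot be told apart from the exercise.

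With edgeR's quasi-likelihood test and Benjamini-Hochberg adjustment over all genes, 9 genes, or 0.0492% of those tested, passed an adjusted p of 0.05: 3 rose (0.0164%) and 6 fell (0.0328%) in HFD+AE. The small count came with many genes close to the threshold. At an unadjusted p below 0.05 stood 4826 genes (26.4%), 2434 higher (13.3%) and 2392 lower (13.1%), and the 3 HFD+AE values did not overlap the 3 HFD values for 5861 genes (32.0%). An adjusted p from 0.05 to below 0.06 was held by 170 genes, and 2080 had one below 0.1. The median log2 change over all genes was 0.00.

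The number of calls therefore rested on single libraries and on the test. It was 0 without HFD 1, 1691 without HFD 2 and 2 without HFD 3, and it was 2 without HFD+AE 1, 1 without HFD+AE 2 and 21 without HFD+AE 3. The libraries outside the comparison, which were in the same model, mattered too: the count was 1930 without HFD+RE 3, 2 without HFD+RE 4, 124 without HFD+RE 5, 2 without NC 2 and 1 without NC 4. With only the 6 libraries in the model 649 genes were called, 213 higher and 436 lower. DESeq2's Wald test on all 12 libraries called 2105 (11.7%), 972 higher (5.42%) and 1133 lower (6.32%). The 9 genes passed both of these fits as well. In a fit without the NC libraries 7 of them did not (adjusted p 0.0571 to 0.0819), which left Hsd3b5 and Cidec. At a 2-fold threshold Hsd3b5 alone passed. For the gene groups below, members are counted as higher or lower at an unadjusted p below 0.05 and, beside that, by DESeq2, to be read against these shares of all genes. edgeR's adjusted test called Cidec and Hsd3b5 and no other member of any list.

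**Figure D1:**
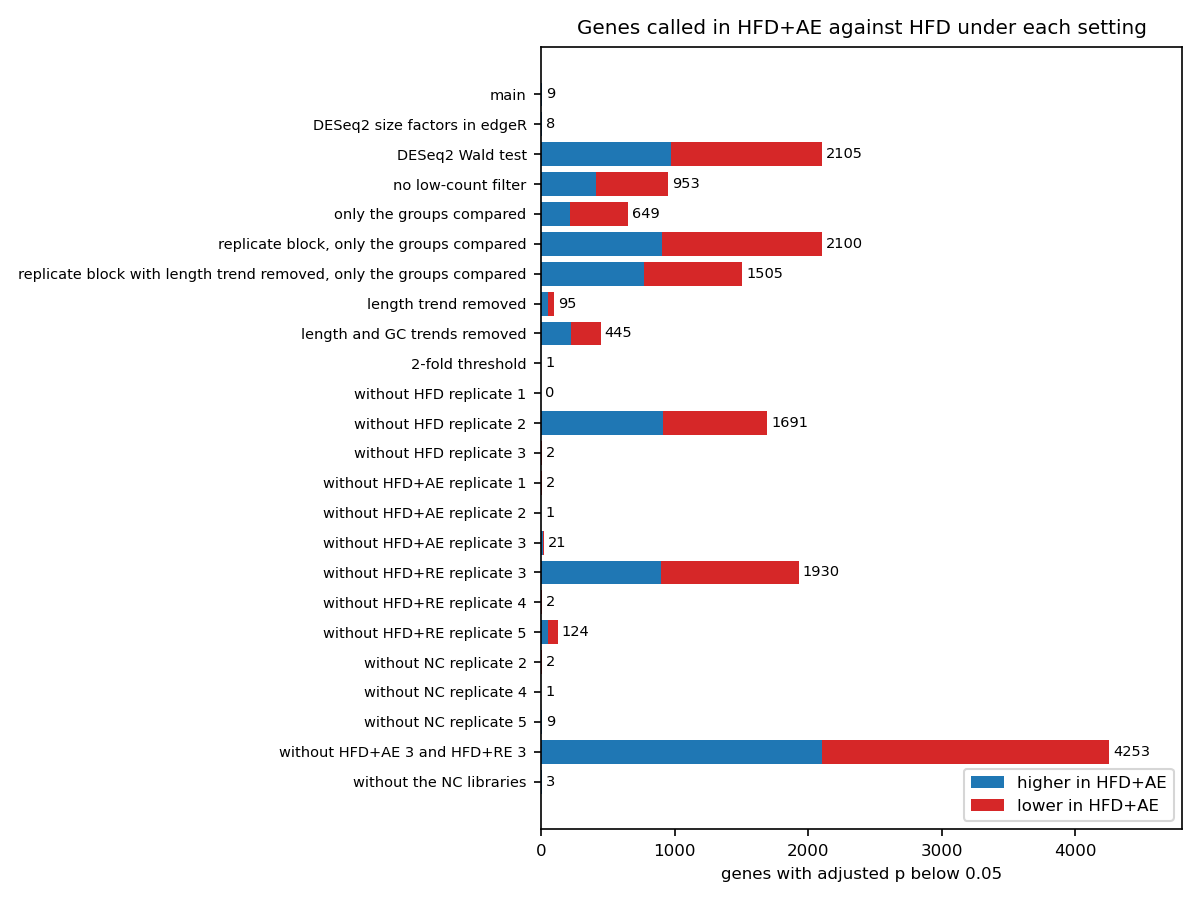
Number of genes with an adjusted p below 0.05 in HFD+AE against HFD (x axis) under the main test and each alternative (y axis), split into genes higher and lower in HFD+AE. The count was 9 in the main test and ran from 0 without HFD 1 to 4253 without HFD+AE 3 and HFD+RE 3.

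Hsd3b5, a 3-keto-steroid reductase made mainly in male mouse liver, showed the largest rise. As CPM, the count relative to the scaled library total, with libraries 1, 2 and 3 in that order here and below, it stood at 0.272, 0.422 and 0.343 CPM in HFD and 77, 26.6 and 17.4 CPM in HFD+AE. Every HFD+AE library was far above every HFD library, and the exercised libraries spread widely, with HFD+AE 1 the highest. The gene rose by 6.86 on the log2 scale (SE 0.78, adjusted p = 0.0111). The other groups were at 124, 25.2 and 112 CPM in HFD+RE 3, 4 and 5 and 211, 191 and 89.2 CPM in NC 2, 4 and 5, so the sedentary high-fat livers were the low group. Hsd3b5 lies on chromosome 3, 98618634 to 98630252 (mm10), overlaps Zfp697 on the other strand, and is 92.7% identical over 1555 aligned bases to Hsd3b4, with which it can share reads. Hsd3b4 itself had 0 counts in each HFD library and 0.156, 0.106 and 0.0206 CPM in HFD+AE 1, 2 and 3 (adjusted p = 0.0903).

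Cyp2c54, a cytochrome P450 of the arachidonic acid and drug oxidising Cyp2c family, stood at 98.1, 180.1 and 104 CPM in HFD and 551, 448 and 396 CPM in HFD+AE. The groups did not overlap, and the gene rose by 1.87 (SE 0.29, adjusted p = 0.0477), a 3.65-fold increase. It lies on chromosome 19, 40037940 to 40073827, within the Cyp2c cluster. Its near copies Cyp2c50 and Cyp2c37, 95.3% and 95.2% identical to it, stood at 1.08 (adjusted p = 0.0596) and 0.76 (adjusted p = 0.0905), so the value of a single member of this family is uncertain. Tgfbr3 encodes betaglycan, a co-receptor that presents TGF-beta and binds inhibin, and lies on chromosome 5, 107106570 to 107289629. It stood at 7.4, 7.29 and 6.97 CPM in HFD and 14.1, 15.9 and 13.9 CPM in HFD+AE, with a narrow range in both groups, and rose by 1.02 (SE 0.16, adjusted p = 0.0470). The HFD+RE libraries were between the groups, at 12.9, 11 and 10.9 CPM.

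Cidec fell the most clearly among protein-coding genes of the nucleus. Its product, also called FSP27, sits where lipid droplets touch and lets them fuse into larger ones, and it is abundant in adipocytes and in fatty liver. Cidec stood at 49, 26.8 and 27.4 CPM in HFD and 6.79, 6.7 and 8.71 CPM in HFD+AE. All 3 HFD+AE libraries were within the range of NC (5.74, 8.27 and 11.1 CPM), and HFD 1 was the highest of all. The gene fell by 2.22 (SE 0.28, adjusted p = 0.0222) and lies on chromosome 6, 113424634 to 113435760. Cfd and Cidea, which adipocytes also make, stood lower too, while the defining adipocyte genes Adipoq, Lep, Plin1 and Retn had at most 8 counts in any library. Adrb3, also on the adipocyte marker list, had up to 566 counts in a library.

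Themis is best known as an adaptor of the T cell receptor in developing T cells. It stood at 24.2, 27.6 and 21.2 CPM in HFD and 9.25, 6.52 and 5.19 CPM in HFD+AE, fell by 1.80 (SE 0.25, adjusted p = 0.0383), and lies on chromosome 10, 28668360 to 28883818. The HFD+AE level remained above that of NC, at 0.781, 0.631 and 0.973 CPM, and was near that of HFD+RE, at 6.15, 5.25 and 3.84 CPM. Themis did not follow the T cell markers across the HFD libraries: HFD 2 was the highest for Themis, while Lck, a kinase of T cells, was at 6.33, 0.934 and 8.94 CPM in HFD 1, 2 and 3. In bulk tissue, fewer cells of a type and less RNA per cell cannot be told apart.

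**Figure D2:**
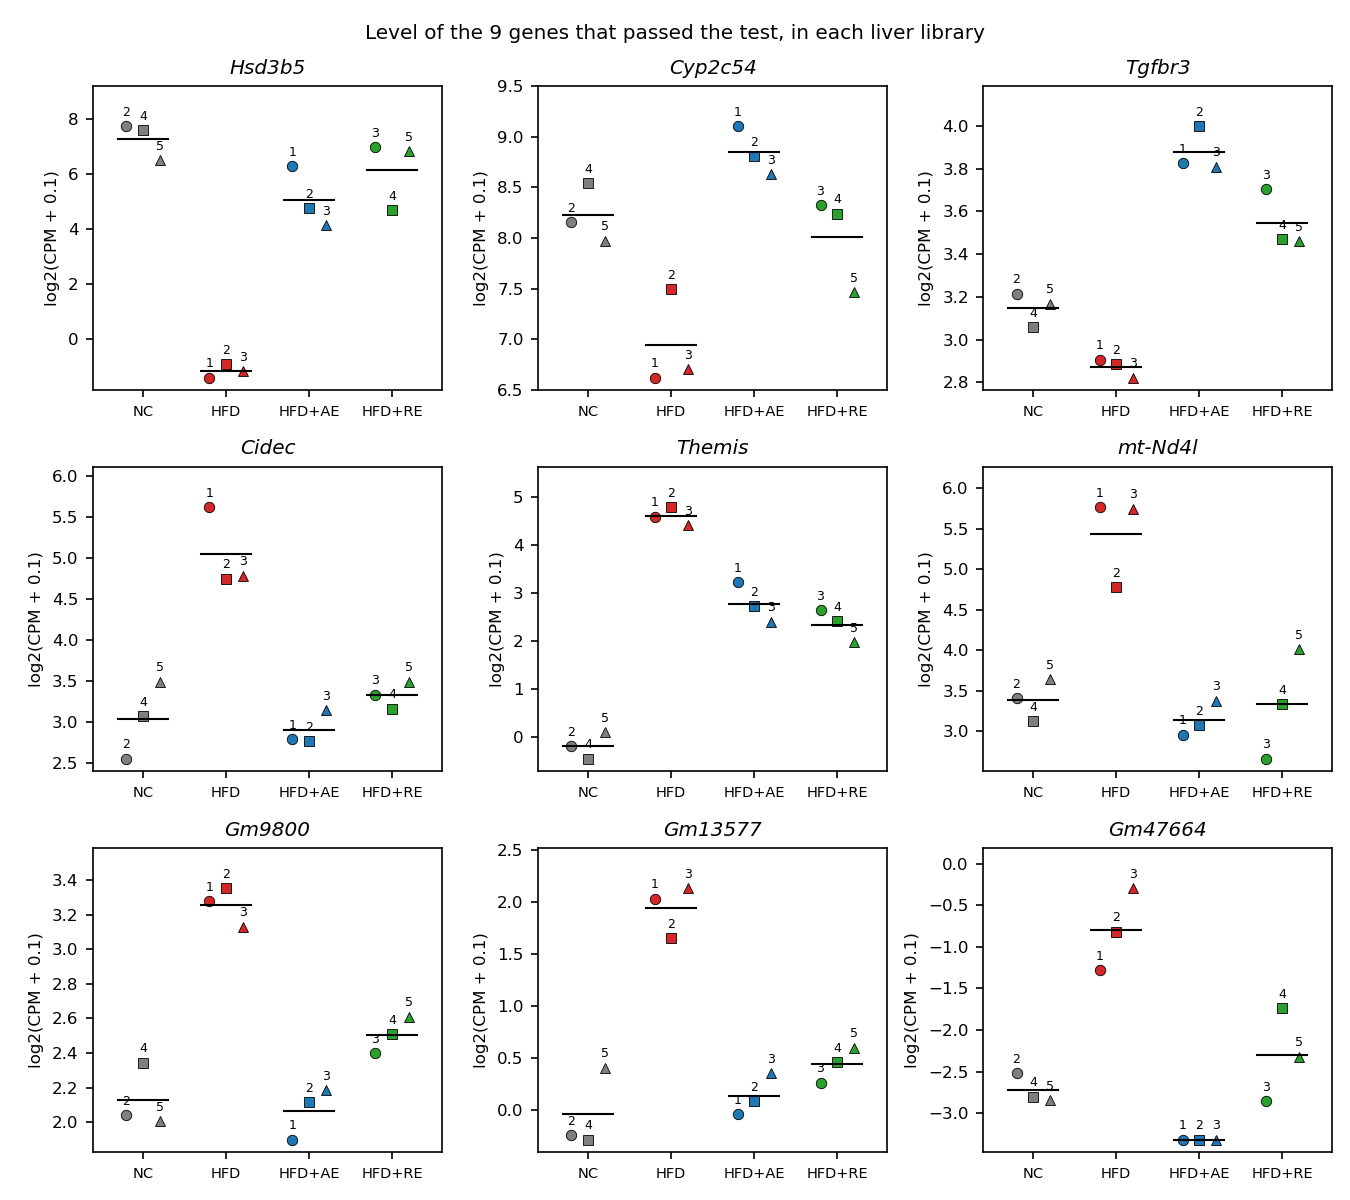
Level of each of the 9 called genes, as log2(CPM + 0.1) on the y axis, in the 12 libraries by group (points, with the library number; lines, group means). The 3 HFD+AE points and the 3 HFD points do not overlap in any of the 9 panels.

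The remaining calls were 3 predicted genes, described after their values were seen, and 1 mitochondrial gene, and the sequences of 3 of them are shown because near-identical copies lie elsewhere in the genome. Gm13577 is a processed pseudogene of 205 bases on chromosome 2, 64474745 to 64474949 (mm10, minus strand), and 201 of its bases align to the messenger RNA of Hmgb1, a chromatin protein, with 1 difference. Other Hmgb1 pseudogenes match it as closely: Gm15387 and Gm21596 to the same 99.5%, Hmgb1-ps9 to 100% over 198 bases, and Gm5518 to 99% over 198 bases. Gm15387 and Gm21596 stood on the same side as Gm13577, at a log2 change of -0.60 (adjusted p = 0.40) and -1.18 (adjusted p = 0.19). Gm21596 had at most 23 counts in any library. Gm5518 stood at 0.76 (adjusted p = 0.22), opposite to Gm13577. Gm9800, of 336 bases on chromosome 14, 8800000 to 8800335 (minus strand), aligns over its whole length to Ptma, the gene of prothymosin alpha, with 99.1% identity. The GENCODE M21 sequences are printed, whole for Gm13577 and as the first 150 bases for Gm9800. Capitals mark the bases that differ from the parent gene within the alignment. The alignment of Gm13577 starts at base 5, and the bases before it are not marked.
Gm13577: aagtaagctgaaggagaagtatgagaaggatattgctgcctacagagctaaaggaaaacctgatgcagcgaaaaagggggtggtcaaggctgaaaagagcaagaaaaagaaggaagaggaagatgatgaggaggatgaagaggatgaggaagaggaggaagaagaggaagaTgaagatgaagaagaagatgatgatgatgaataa
Gm9800: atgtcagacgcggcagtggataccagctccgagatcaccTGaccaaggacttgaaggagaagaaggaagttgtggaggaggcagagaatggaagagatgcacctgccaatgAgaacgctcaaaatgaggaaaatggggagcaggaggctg
The substitutions are C172T in Gm13577 and G112A in Gm9800 (the parent's base, the position from 1 at the pseudogene's 5′ end, the pseudogene's base). The other capitals in Gm9800 are 2 bases with no partner in Ptma.

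Gm13577 stood at 3.99, 3.05 and 4.29 CPM in HFD and 0.872, 0.957 and 1.17 CPM in HFD+AE and fell by 1.92 (SE 0.29, adjusted p = 0.0470). Hmgb1 did not share this difference: it ranged from 40.8 to 55.5 CPM in HFD and from 47.2 to 60.7 CPM in HFD+AE, with a log2 change of 0.13 (95% interval -0.23 to 0.49). Gm9800 stood at 9.6, 10.1 and 8.65 CPM in HFD and 3.63, 4.23 and 4.45 CPM in HFD+AE and fell by 1.20 (SE 0.19, adjusted p = 0.0470). Here the parent stood lower too: Ptma ranged from 200.01 to 240.5 CPM in HFD and from 149.7 to 193.5 CPM in HFD+AE, at -0.42 (adjusted p = 0.16). After each library's trend on gene length was removed, Gm9800 stood at -0.70 and no longer passed (adjusted p = 0.0856), while the other 8 genes still did. Gm47664, a transcript annotated inside an intron of Elmo1 on chromosome 13, 20499888 to 20501227, had 16, 21 and 50 counts in HFD 1, 2 and 3 and 0 in each HFD+AE library (adjusted p = 0.0470). Pooled over the group, HFD stood at 0.523 CPM, 29.5-fold above an assumed floor of 3 counts over the HFD+AE group. HFD 3 weighed most in that pooled value. In NC 2, 4 and 5 the counts were 4, 2 and 3. Elmo1 stood at -0.72 (adjusted p = 0.12).

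The mitochondrial call, mt-Nd4l, encodes a small membrane subunit of complex I, on the mitochondrial genome at 9877 to 10173. It stood at 54.3, 27.4 and 53.6 CPM in HFD and 7.68, 8.33 and 10.3 CPM in HFD+AE and fell by 2.36 (SE 0.34, adjusted p = 0.0383). Its sequence is shown because 294 of its 297 bases are identical to Gm10222, a nuclear copy on chromosome 1, and the last 7, in capitals, overlap mt-Nd4.
mt-Nd4l: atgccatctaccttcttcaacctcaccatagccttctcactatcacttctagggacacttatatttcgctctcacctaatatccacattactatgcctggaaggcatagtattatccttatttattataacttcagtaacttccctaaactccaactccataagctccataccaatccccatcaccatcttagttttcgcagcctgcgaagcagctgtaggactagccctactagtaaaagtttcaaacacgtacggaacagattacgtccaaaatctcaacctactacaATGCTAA
Gm10222 itself ranged from 6.88 to 7.92 CPM in HFD and from 6.62 to 11.6 CPM in HFD+AE, a log2 change of 0.30 (95% interval -0.25 to 0.85).

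The mitochondrial genes lay at very different levels. Per kilobase of gene, mt-Co2, mt-Atp6, mt-Co3, mt-Nd3 and mt-Nd4l, each covered over at least 99% of its length by a copy on chromosome 1 with at most 1 difference, lay between 23.9 and 252 CPM in the 6 libraries. The lowest was mt-Atp8, at 0.695 to 1.96, with an annotated copy over 21.1% of its length. Copies were sought among annotated transcripts only, so whether an unannotated copy covers the rest of mt-Atp8 was not tested. In mt-Nd4, adjacent to mt-Nd4l in the genome and matched by a copy over 63.6% of its length, the range was 3104 to 6279. How reads that map to several places were counted is not given in the sources used here. Among the genes without such a copy, the ribosomal RNA mt-Rnr2 was lower in each HFD+AE library, at 16263, 12671 and 20910.5 CPM in HFD and 6237, 5539.9 and 5776 CPM in HFD+AE, with a log2 change of -1.51 (adjusted p = 0.0574). The messenger RNAs were closer: mt-Co1, the core subunit of complex IV, stood at 0.12 (SE 0.33, and -0.28 without HFD+AE 3), mt-Cytb of complex III at -0.44 (SE 0.26, and 0.15 with the length and GC trends removed) and mt-Nd5 of complex I at 0.22 (SE 0.23).

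**Figure D3:**
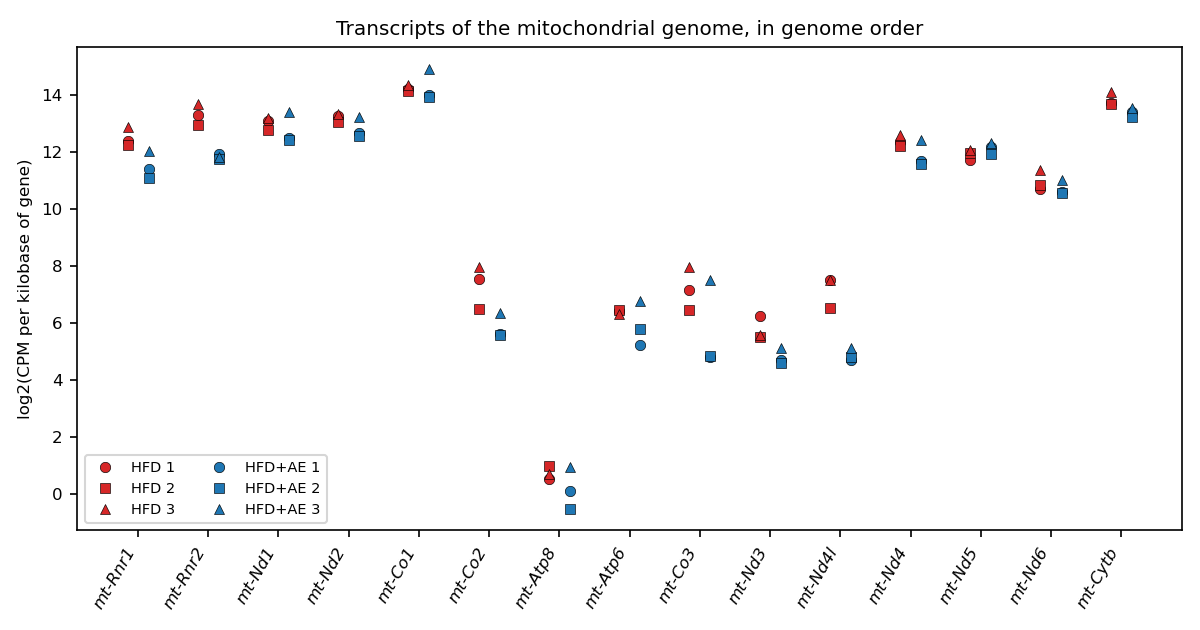
Level of the 15 mitochondrial genes (x axis, genome order), as log2 of CPM per kilobase of gene (y axis), in HFD and HFD+AE libraries (1 point per library). The ribosomal RNA mt-Rnr2 and mt-Nd4l are among the genes whose groups do not overlap, and mt-Co2, mt-Atp8, mt-Atp6, mt-Co3, mt-Nd3 and mt-Nd4l lie far below their neighbours.

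How far the 9 calls depended on single libraries is given by the adjusted p of each when a library was left out. Without HFD 1 none passed (0.104 to 0.196), and without HFD 3 Cidec alone did (0.0472, the others 0.082 to 0.251). Without HFD+AE 1, Hsd3b5 and Themis passed (the other 7 at 0.122 to 0.142). Without HFD+AE 2, or NC 4, Hsd3b5 alone passed (the other 8 at 0.176, or 0.0567 to 0.0645). Without HFD+AE 3 all but Gm47664 (0.0562) passed. Without HFD+RE 4, or NC 2, Hsd3b5 and Cidec passed (the other 7 at 0.0614, or 0.0579 to 0.0619), and without NC 5 Tgfbr3, Gm47664, Gm9800 and Cyp2c54 did not (0.0513 to 0.0542). All 9 passed without HFD 2, HFD+RE 3 or HFD+RE 5. The log2 change kept its sign throughout, from 5.99 to 7.24 for Hsd3b5 and from -2.37 to -1.88 for Cidec over 23 alternatives.

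Just outside the threshold, 7 higher and 7 lower genes completed the named set; none of them passed edgeR's test, and DESeq2 called each. Among the higher ones, Hhip, a decoy receptor of hedgehog ligands, stood at 1.28, 1.69 and 1.57 CPM in HFD and 5.67, 4.18 and 3.4 CPM in HFD+AE, a log2 difference of 1.54 (SE 0.26, adjusted p = 0.0536). Cyp39a1, the oxysterol 7-alpha-hydroxylase of a side route to bile acids, stood at 19.6, 25.6 and 15.2 CPM in HFD and 64.2, 91.3 and 57.3 CPM in HFD+AE (1.81, SE 0.31, adjusted p = 0.0536). The others were the pheromone carrier gene Mup9 at 1.98 (SE 0.34, adjusted p = 0.0536), the carboxylesterase Ces2c at 1.30 (SE 0.24, adjusted p = 0.0536), the Ras exchange factor Rasgef1b at 1.44 (SE 0.27, adjusted p = 0.0536), the actin-binding Ablim3 at 1.15 (SE 0.20, adjusted p = 0.0536) and the zinc finger gene Zfp609 at 1.20 (SE 0.22, adjusted p = 0.0536). Mup9 has near-identical neighbours, and its value is uncertain.

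The lower set was led by Cfd, the complement factor D or adipsin, which adipocytes secrete in quantity. It stood at 9.77, 45 and 5.56 CPM in HFD and 1.2, 0.957 and 0.268 CPM in HFD+AE, a log2 difference of -4.61 (SE 0.74, adjusted p = 0.0523). HFD 2 was well above HFD 1 and 3, and the lowest HFD value exceeded the highest HFD+AE value. Kbtbd11, a gene of the Kelch family, stood at -1.89 (SE 0.31, adjusted p = 0.0523) and Rasgrp2, an exchange factor of the Rap GTPases of blood cells and platelets, at -1.06 (SE 0.18, adjusted p = 0.0536). Fyb2, an adaptor of T cell signalling, stood at -1.22 (SE 0.22, adjusted p = 0.0536), Srp19 of the signal recognition particle at -1.30 (SE 0.24, adjusted p = 0.0536), Luc7l3, a splicing factor, at -1.22 (SE 0.23, adjusted p = 0.0536), and A2ml1, a protease inhibitor, at -0.98 (SE 0.18, adjusted p = 0.0536).

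The gene lists describe which liver functions lay on which side. In fatty acid oxidation and ketogenesis 10 of 25 were higher and 0 lower at an unadjusted p below 0.05, none passed edgeR's adjusted test, and DESeq2 called 3 higher and 0 lower (median log2 change 0.35). Acadvl, which starts the mitochondrial oxidation of long chains, stood at 55.2, 129 and 34.6 CPM in HFD and 199, 196 and 217 CPM in HFD+AE: every HFD+AE value exceeded every HFD value (log2 difference 1.48, SE 0.44, adjusted p = 0.0761). HFD 2 was nearest to the exercised livers here. Hadha, of the trifunctional protein that completes the cycle, stood at 273 ± 63 CPM in HFD and 486 ± 114 CPM in HFD+AE (mean ± SD, n = 3 libraries each here and below; log2 difference 0.83, SE 0.24, adjusted p = 0.0729). Ehhadh, the peroxisomal counterpart, stood at 142 ± 69.3 CPM in HFD and 297 ± 11.9 CPM in HFD+AE (log2 difference 1.06, SE 0.35, adjusted p = 0.0926), and Cpt1a, the gate for fatty acids into mitochondria, at 484 ± 117 CPM in HFD and 769 ± 22.8 CPM in HFD+AE (log2 difference 0.67, SE 0.25, adjusted p = 0.12). Ppara, the receptor that induces this programme, stood at 174, 203 and 199.9 CPM in HFD and 263, 244 and 239 CPM in HFD+AE, without overlap (log2 difference 0.37, SE 0.17, adjusted p = 0.20), and its coactivator Ppargc1a stood at a log2 difference of 0.15 (SE 0.25, adjusted p = 0.74).

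Fat synthesis and storage did not share 1 direction. In de novo lipogenesis 2 of 20 were higher and 1 lower at an unadjusted p below 0.05, and DESeq2 called 1 higher and 0 lower (median 0.24, 0.08 without HFD+AE 3). Dgat2, which makes triglyceride from diglyceride, stood at 0.59 (SE 0.20, adjusted p = 0.0973) and Acly, which supplies acetyl-CoA in the cytosol, at 0.78 (SE 0.29, adjusted p = 0.12). Thrsp, or Spot 14, a lipogenic gene, was on the other side at -1.33 (SE 0.58, adjusted p = 0.17), with HFD 2 inside the HFD+AE range. Fasn, the fatty acid synthase, stood at 317, 161 and 269 CPM in HFD and 159, 315 and 229 CPM in HFD+AE, with no separation of the groups (log2 difference -0.09, SE 0.46, adjusted p = 0.92), and Scd1, the stearoyl-CoA desaturase, at 0.31 (SE 0.33, adjusted p = 0.57). Srebf1, the transcription factor that drives lipogenesis, stood at 0.23 (SE 0.38, adjusted p = 0.73), and at -0.037 without HFD+AE 3.

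On lipid droplets and in fatty acid uptake 20 genes were tested: Cidec was the only one called, 3 were higher and 3 lower at an unadjusted p below 0.05, and DESeq2 called 1 higher and 3 lower (median -0.31). Cidea, another droplet fusion protein, typical of brown fat, stood at 7.03, 5.96 and 4.41 CPM in HFD and 0.748, 0.106 and 0.165 CPM in HFD+AE. The groups were far apart, at -4.05 (SE 0.72, adjusted p = 0.0536). Mogat1, a monoacylglycerol acyltransferase found in fatty liver, stood at 4.5, 5.96 and 4.71 CPM in HFD and 1.51, 1.03 and 2.12 CPM in HFD+AE (log2 difference -1.70, SE 0.47, adjusted p = 0.0704). In contrast, Plin2, the general droplet coat, had HFD+AE 3 above every HFD library and HFD+AE 1 and 2 below, at 520.4, 526 and 452 CPM in HFD and 309.9, 289 and 554 CPM in HFD+AE (log2 difference -0.38, SE 0.28, adjusted p = 0.41). Cd36, the fatty acid translocase, stood at 135 ± 51.9 CPM in HFD and 127 ± 16.8 CPM in HFD+AE (log2 difference -0.09, SE 0.39, adjusted p = 0.90), and Pparg, which drives fat storage genes, at -0.14 (SE 0.21, adjusted p = 0.69). Slc27a5, which activates fatty acids and bile acids, was on the higher side at 0.76 (SE 0.23, adjusted p = 0.0835). Osbpl3, an oxysterol-binding protein, stood at 47.5, 39.7 and 28.8 CPM in HFD and 19.97, 16.6 and 22.3 CPM in HFD+AE, lower in each HFD+AE library (log2 difference -0.98, SE 0.29, adjusted p = 0.0783).

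**Figure D4:**
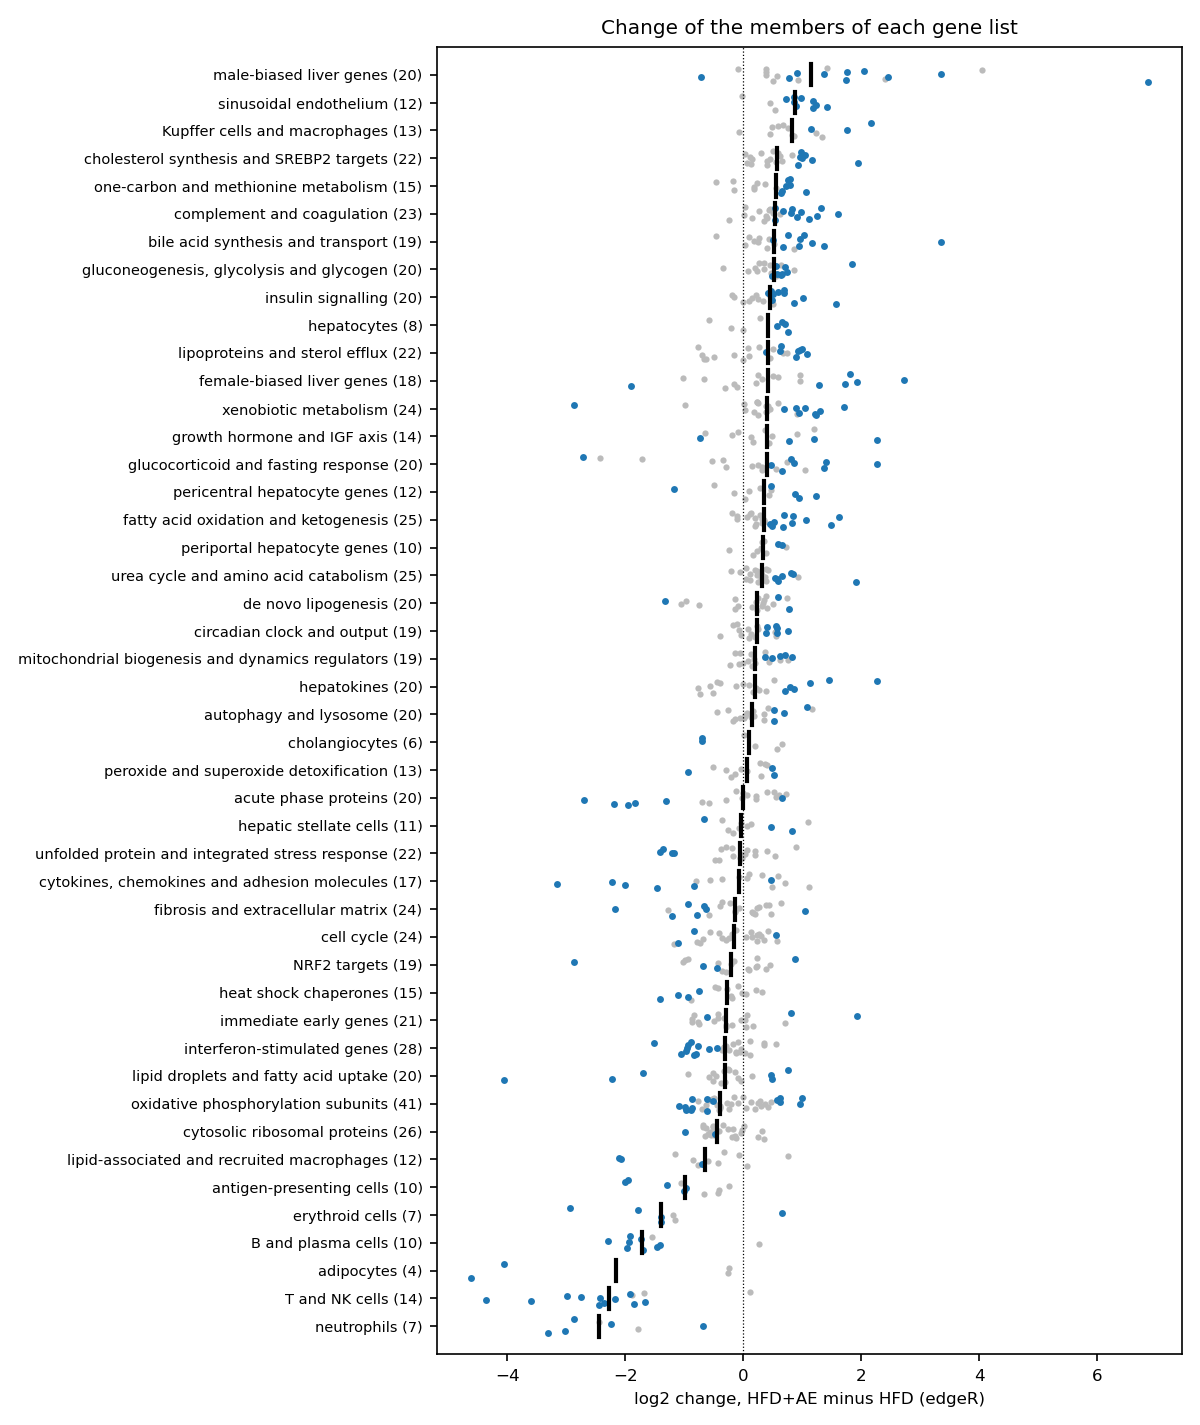
Log2 change in HFD+AE against HFD (x axis) of every tested member (points, blue where the unadjusted p is below 0.05) of the 46 lists with at least 4 tested members (y axis, number tested in brackets), with list medians as bars. Male-biased genes and markers of endothelium and of Kupffer cells and macrophages lie to the right, and T cell, B cell and neutrophil markers to the left.

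Sterol genes lay on the higher side. All 22 genes of cholesterol synthesis and SREBP2 targets had a log2 change above 0 (median 0.57), against 9190 of all 18305 genes. Of the list, 7 were at an unadjusted p below 0.05, none at edgeR's adjusted threshold and 4 by DESeq2. Averaged over the list, log2 CPM was 5.54, 5.21 and 5.11 in the HFD libraries and 5.49, 6.39 and 5.71 in the HFD+AE libraries. HFD+AE 1 lay below HFD 1, so the groups overlapped, and HFD+AE 2 was the highest. Idi1, which makes dimethylallyl diphosphate, stood at 9.5, 12.1 and 3.28 CPM in HFD and 25.3, 57.9 and 12.6 CPM in HFD+AE. HFD+AE 2 was the highest and HFD 3 the lowest (log2 difference 1.95, SE 0.57, adjusted p = 0.0750). Tm7sf2, a sterol reductase, stood at 47.4, 46.6 and 41.1 CPM in HFD and 63.6, 99.9 and 103 CPM in HFD+AE, lower in each HFD library (log2 difference 0.98, SE 0.27, adjusted p = 0.0678).

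For lipoproteins and sterol efflux, 8 of 22 were higher and 0 lower at an unadjusted p below 0.05, and DESeq2 called 3 higher and 0 lower (median 0.42). Lipc, the hepatic lipase, stood at 73.2, 91 and 65.7 CPM in HFD and 145, 146 and 165 CPM in HFD+AE, with every exercised library above every sedentary one (log2 difference 0.99, SE 0.19, adjusted p = 0.0539). Mttp, which loads triglyceride onto apolipoprotein B, stood at 160.0, 238 and 116 CPM in HFD and 336, 368 and 384 CPM in HFD+AE (log2 difference 1.08, SE 0.25, adjusted p = 0.0609). Abcg8, which pairs with Abcg5 to send sterol into bile, stood at 76.7 ± 9.88 CPM in HFD and 146 ± 38.7 CPM in HFD+AE (log2 difference 0.93, SE 0.21, adjusted p = 0.0596).

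In bile acid synthesis and transport, 9 of 19 were higher and 0 lower at an unadjusted p below 0.05, DESeq2 called 8 higher and 0 lower, and the median was 0.52. Slc10a1, or NTCP, which takes bile acids up from blood, stood at 290.0, 419 and 229 CPM in HFD and 702, 781 and 626 CPM in HFD+AE, without overlap (log2 difference 1.17, SE 0.23, adjusted p = 0.0574). Slco1a1, an organic anion carrier of male liver, stood at 19.8, 54.5 and 17.8 CPM in HFD and 515, 342 and 87.8 CPM in HFD+AE (log2 difference 3.36, SE 0.67, adjusted p = 0.0574). HFD+AE 3 was the lowest of the exercised group for Slco1a1, still above HFD 2. The enzymes of the alternative pathway Cyp7b1 and Cyp27a1 stood at 1.37 (SE 0.34, adjusted p = 0.0614) and 0.67 (SE 0.17, adjusted p = 0.0614). Cyp7a1, the rate-limiting enzyme of the classical pathway, overlapped at 93.2, 164 and 187 CPM in HFD and 355, 299 and 149 CPM in HFD+AE (log2 difference 0.85, SE 0.95, adjusted p = 0.59), and Cyp8b1, which sets the cholic acid share, stood at 0.40 (SE 0.35, adjusted p = 0.49).

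Among 24 genes of xenobiotic metabolism, 8 were higher and 1 lower at an unadjusted p below 0.05, and DESeq2 called 8 higher and 0 lower (median 0.41). Cyp1a2, which oxidises caffeine and aromatic amines, stood at 216, 199.9 and 229.7 CPM in HFD and 379, 425 and 715 CPM in HFD+AE. All exercised values were above all sedentary ones (log2 difference 1.23, SE 0.24, adjusted p = 0.0536). Ces2a, a carboxylesterase, stood at 79.1 ± 14.4 CPM in HFD and 164 ± 28.9 CPM in HFD+AE (log2 difference 1.05, SE 0.22, adjusted p = 0.0574), Nr1i3, the receptor CAR that induces such genes, at 49.5 ± 5.82 CPM in HFD and 80.2 ± 11.5 CPM in HFD+AE (log2 difference 0.70, SE 0.17, adjusted p = 0.0614), and Cyp2e1, the ethanol-oxidising P450, at 0.95 (SE 0.27, adjusted p = 0.0719). Cyp2e1 and Cyp1a2 also mark pericentral hepatocytes, a list in which 4 of 12 were higher and 1 lower at an unadjusted p below 0.05 (median 0.35, 0.11 without HFD+AE 3). Among periportal genes, which include Ass1 and Pigr, the receptor of polymeric immunoglobulins (log2 difference 0.66, SE 0.25, adjusted p = 0.13), 2 of 10 were higher and 0 lower at an unadjusted p below 0.05 (median 0.33, 0.21 without HFD+AE 3). DESeq2 called 3 pericentral and 1 periportal gene higher and none lower.

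The male-biased liver genes had the highest median of the 34 function lists, 1.15. Hsd3b5 alone passed, 9 of 20 were higher and 1 lower at an unadjusted p below 0.05, and DESeq2 called 5 higher and 0 lower. Beside Hsd3b5 and Slco1a1, Cyp4a12b, a fatty acid omega-hydroxylase, stood at 2.02, 3.29 and 1.96 CPM in HFD and 13, 3.38 and 7.74 CPM in HFD+AE (log2 difference 1.74, SE 0.45, adjusted p = 0.0633). Mup7, a major urinary protein gene, spread widely, at 64.2, 461 and 57.1 CPM in HFD and 2082, 927 and 191 CPM in HFD+AE. HFD 2 overlapped HFD+AE 3 for Mup7 (log2 difference 2.46, SE 0.88, adjusted p = 0.11). Cyp4a and Mup genes have near-identical neighbours that can share their reads. Female-biased genes did not lie lower as a group: 5 of 18 were higher and 1 lower at an unadjusted p below 0.05, and DESeq2 called 3 higher and 0 lower (median 0.41). Cyp17a1, the steroid 17-alpha-hydroxylase, stood at 15, 10.4 and 14.1 CPM in HFD and 32.7, 61.1 and 37.4 CPM in HFD+AE (log2 difference 1.73, SE 0.36, adjusted p = 0.0574), and Cyp2a4, a testosterone hydroxylase, on the other side at -1.90 (SE 0.73, adjusted p = 0.13).

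In the growth hormone and IGF axis, with 14 genes tested, 3 were higher and 1 lower at an unadjusted p below 0.05, and DESeq2 called 2 higher and 0 lower (median 0.40, 0.24 with the length trends removed). Igfbp1, an insulin-repressed binding protein of IGFs, stood at 17.3, 30.4 and 6.15 CPM in HFD and 92.4, 99.6 and 66.1 CPM in HFD+AE. Its groups were well separated (log2 difference 2.26, SE 0.51, adjusted p = 0.0609), and HFD+RE, at 19.3, 12.8 and 10.2 CPM, resembled the sedentary level. Igfbp2 stood at 119 ± 20.9 CPM in HFD and 273 ± 138 CPM in HFD+AE (log2 difference 1.20, SE 0.29, adjusted p = 0.0614), with HFD+AE 3 the highest. Igf1, the growth factor itself, stood at 619 ± 114 CPM in HFD and 697 ± 202 CPM in HFD+AE (log2 difference 0.17, SE 0.28, adjusted p = 0.72), and at -0.070 with the length trends removed.

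For gluconeogenesis, glycolysis and glycogen, 8 of 20 were higher and 0 lower at an unadjusted p below 0.05, and DESeq2 called 2 higher and 0 lower (median 0.52). Pygl, which breaks down glycogen, stood at 275, 295 and 282 CPM in HFD and 393, 436 and 421 CPM in HFD+AE (log2 difference 0.55, SE 0.18, adjusted p = 0.0932), and Slc2a2, the glucose transporter GLUT2, at 406 ± 75.8 CPM in HFD and 605 ± 50.01 CPM in HFD+AE (log2 difference 0.57, SE 0.20, adjusted p = 0.10). The gluconeogenic enzymes Pck1 and G6pc stood at 0.49 (SE 0.22, adjusted p = 0.18) and 0.56 (SE 0.31, adjusted p = 0.27). In insulin signalling 10 of 20 were higher and 0 lower at an unadjusted p below 0.05, and DESeq2 called 4 higher and 0 lower. The median was 0.46, 0.27 with the length trends removed, in a list whose median gene length was 9116 bases. Irs1, the receptor substrate, stood at 3.97, 9.22 and 3.52 CPM in HFD and 18.1, 18.1 and 13.3 CPM in HFD+AE (log2 difference 1.57, SE 0.54, adjusted p = 0.10), Tsc2, an inhibitor of mTORC1, at 0.69 (SE 0.19, adjusted p = 0.0678) and Rptor, a subunit of mTORC1, at 0.59 (SE 0.18, adjusted p = 0.0808).

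Among 20 genes of the glucocorticoid and fasting response, 7 were higher and 1 lower at an unadjusted p below 0.05, and DESeq2 called 3 higher and 1 lower (median 0.40). Sgk1, a kinase induced by glucocorticoids, stood at 7.55, 9.58 and 8.72 CPM in HFD and 21.9, 30.2 and 14.4 CPM in HFD+AE (log2 difference 1.36, SE 0.31, adjusted p = 0.0609). Lcn2, lipocalin 2, which also rises in inflammation, stood lower in each exercised library at 79.7, 122 and 91 CPM in HFD and 10.1, 10.1 and 24.5 CPM in HFD+AE (log2 difference -2.71, SE 0.88, adjusted p = 0.0903). Pdk4, which blocks pyruvate oxidation in fasting, overlapped at 4.96 ± 2.52 CPM in HFD and 6.16 ± 0.551 CPM in HFD+AE (log2 difference 0.32, SE 0.36, adjusted p = 0.60). In the clock list 6 of 19 were higher and 0 lower at an unadjusted p below 0.05, DESeq2 called none, and the median was 0.23. Tef and Nr1d2, output and repressor of the clock, stood at 0.57 (SE 0.22, adjusted p = 0.13) and 0.75 (SE 0.29, adjusted p = 0.13).

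The regulators of mitochondrial biogenesis and dynamics had 5 of 19 genes higher and none lower at an unadjusted p below 0.05, and DESeq2 called 2 higher (median 0.20, 0.39 without HFD+AE 3). Prkaa2, a catalytic subunit of AMPK, stood at 51.3, 69.7 and 44 CPM in HFD and 109, 107 and 77.3 CPM in HFD+AE (log2 difference 0.83, SE 0.26, adjusted p = 0.0848), and Opa1, which fuses inner membranes, at 64.4 ± 13.4 CPM in HFD and 105 ± 13.1 CPM in HFD+AE (log2 difference 0.71, SE 0.23, adjusted p = 0.0895). The 41 nuclear subunits of oxidative phosphorylation split: 5 were higher and 9 lower at an unadjusted p below 0.05, and DESeq2 called 3 higher and 3 lower. Ndufs4, an accessory subunit of complex I, stood at 81.4, 64 and 97.8 CPM in HFD and 37, 39.3 and 38.7 CPM in HFD+AE (log2 difference -1.08, SE 0.27, adjusted p = 0.0614). Atp5b, the catalytic beta subunit of ATP synthase, stood on the opposite side at 515, 758 and 364 CPM in HFD and 1026, 1037 and 1185 CPM in HFD+AE (log2 difference 0.99, SE 0.27, adjusted p = 0.0675). Sdha, of complex II, stood at 0.96 (SE 0.33, adjusted p = 0.10) and Ndufb3 at -0.86 (SE 0.26, adjusted p = 0.0761).

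Gene length differed along this split: the subunits higher at an unadjusted p below 0.05 had a median length of 3135 bases and those lower 876 bases. The subunit list had a median length of 1908 bases against 3548 over all genes, and its median log2 change went from -0.39 to -0.08 when each library's length trend was removed. Cytosolic ribosomal proteins, with a median length of 1782 bases, went from -0.44 to -0.21 in the same way and stood at -0.71 without HFD+AE 3, with 2 of 26 lower and none higher at an unadjusted p below 0.05 and no call by either tool. Rpl37 showed HFD+AE 3 near the sedentary level, at 124, 108 and 178 CPM in HFD and 48.6, 55 and 104 CPM in HFD+AE (log2 difference -0.98, SE 0.41, adjusted p = 0.15), and Rpl30 stood at -0.48 (SE 0.19, adjusted p = 0.13). Over all genes, those higher at an unadjusted p below 0.05 had a median length of 5491 bases and those lower 2338 bases.

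Amino acid and methyl group metabolism lay on the higher side. In urea cycle and amino acid catabolism 7 of 25 were higher and 0 lower at an unadjusted p below 0.05, and DESeq2 called 5 higher and 0 lower (median 0.31, 0.18 without HFD+AE 3). Cps1, which brings ammonia into the urea cycle, stood at 706, 1648 and 553 CPM in HFD and 4071, 4421 and 2461 CPM in HFD+AE. HFD 2 was the highest sedentary library and remained below HFD+AE 3, the lowest exercised one (log2 difference 1.91, SE 0.53, adjusted p = 0.0689). Ass1, a cytosolic enzyme of the cycle, stood at 0.58 (SE 0.21, adjusted p = 0.12). In one-carbon and methionine metabolism 7 of 15 were higher and 0 lower at an unadjusted p below 0.05, and DESeq2 called 6 higher and 0 lower (median 0.56). Gnmt, which disposes of excess methyl groups as sarcosine, stood at 465, 763 and 512 CPM in HFD and 1028, 1122 and 1495 CPM in HFD+AE (log2 difference 1.07, SE 0.25, adjusted p = 0.0609), Shmt1 at 0.80 (SE 0.21, adjusted p = 0.0632) and Ahcy, which clears S-adenosylhomocysteine, at 0.65 (SE 0.21, adjusted p = 0.0875).

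Secreted proteins of hepatocytes did not move as 1 group. In complement and coagulation 11 of 23 were higher and 0 lower at an unadjusted p below 0.05, and DESeq2 called 5 higher and 0 lower (median 0.53). F5, coagulation factor V, stood at 492 ± 159 CPM in HFD and 965 ± 139 CPM in HFD+AE (log2 difference 0.97, SE 0.29, adjusted p = 0.0778), C1ra at 0.54 (SE 0.17, adjusted p = 0.0867) and C8b, of the membrane attack complex, at 1.25 (SE 0.40, adjusted p = 0.0888). Acute phase proteins had 1 of 20 genes higher and 5 lower, DESeq2 called 2 lower, and the median was -0.01, 0.20 with the length trends removed, -0.19 without HFD+AE 3. Saa3 stood at 15, 8.87 and 21.3 CPM in HFD and 2.96, 2.76 and 6.98 CPM in HFD+AE (log2 difference -1.83, SE 0.38, adjusted p = 0.0574). Orm3 stood at 23.2, 31.2 and 27.9 CPM in HFD and 2.91, 4.11 and 5.62 CPM in HFD+AE (log2 difference -2.70, SE 0.64, adjusted p = 0.0609), although Saa and Orm genes have near copies. Among hepatokines 6 of 20 were higher and 0 lower at an unadjusted p below 0.05, and DESeq2 called 3 higher and 0 lower (median 0.19, 0.39 with the length trends removed, 0.09 without HFD+AE 3). Ahsg, or fetuin-A, stood at 0.70 (SE 0.21, adjusted p = 0.0814), Fgf21, a hormone of fasting and metabolic stress, at 8.76, 3.38 and 10.7 CPM in HFD and 2.4, 3.76 and 7.62 CPM in HFD+AE (log2 difference -0.74, SE 0.47, adjusted p = 0.33), and Fst, or follistatin, at -0.51 (SE 0.36, adjusted p = 0.37).

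Among stress genes, those at a low p lay mostly lower. Of 22 genes of the unfolded protein and integrated stress response, none was higher and 4 were lower at an unadjusted p below 0.05, and DESeq2 called 0 higher and 3 lower (median -0.05, -0.21 without HFD+AE 3). Ddit3, the transcription factor CHOP, stood at 17.8, 19.8 and 16.3 CPM in HFD and 8.65, 5.79 and 6.47 CPM in HFD+AE, without overlap (log2 difference -1.37, SE 0.28, adjusted p = 0.0574). Manf, a secreted protein of the endoplasmic reticulum, stood at 83 ± 32.1 CPM in HFD and 36.9 ± 6.97 CPM in HFD+AE (log2 difference -1.17, SE 0.33, adjusted p = 0.0727). Among 15 heat shock chaperones none was higher and 4 were lower, and DESeq2 called 2 lower (median -0.28). Hsp90aa1 stood at 307, 331 and 273 CPM in HFD and 210.1, 155 and 109.6 CPM in HFD+AE (log2 difference -0.94, SE 0.30, adjusted p = 0.0875) and Hspa1b, an inducible HSP70, at -1.41 (SE 0.52, adjusted p = 0.12). Among 21 immediate early genes 2 were higher and 1 lower, and DESeq2 called Nr4a1 alone (median -0.30). Nr4a1, a nuclear receptor induced within minutes by many stimuli, stood at 2.24, 1.76 and 1.79 CPM in HFD and 6.98, 11.6 and 3.34 CPM in HFD+AE (log2 difference 1.92, SE 0.39, adjusted p = 0.0574), and Klf6 at -0.61 (SE 0.24, adjusted p = 0.13).

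Other housekeeping programmes showed few members apart. For NRF2 targets 1 of 19 were higher and 3 lower at an unadjusted p below 0.05, with no DESeq2 call (median -0.21, -0.07 with the length trends removed, -0.43 without HFD+AE 3). Gsta1, a glutathione transferase with near copies, stood at 7.36, 2.51 and 24.9 CPM in HFD and 1.96, 1.06 and 1.75 CPM in HFD+AE (log2 difference -2.86, SE 0.94, adjusted p = 0.0928), and Txn1, thioredoxin, at -0.68 (SE 0.24, adjusted p = 0.11). For peroxide and superoxide detoxification 2 of 13 were higher and 1 lower at an unadjusted p below 0.05, with no DESeq2 call (median 0.07). Cat, catalase, stood at 0.53 (SE 0.21, adjusted p = 0.14) and Prdx4 at 0.49 (SE 0.18, adjusted p = 0.12). In autophagy and lysosome 4 of 20 were higher and 0 lower at an unadjusted p below 0.05, and DESeq2 called 1 higher and 0 lower (median 0.15, 0.01 without HFD+AE 3). Npc1, which moves cholesterol out of lysosomes, stood at 68.3, 83.8 and 53.4 CPM in HFD and 128, 153 and 155 CPM in HFD+AE (log2 difference 1.09, SE 0.24, adjusted p = 0.0596). In the cell cycle list 1 of 24 were higher and 2 lower at an unadjusted p below 0.05, with no DESeq2 call (median -0.16). Mcm7, of the replicative helicase, stood at 0.56 (SE 0.20, adjusted p = 0.11) and Cdkn1a, the inhibitor p21, at -0.84 (SE 0.33, adjusted p = 0.13).

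Genes of inflammation were mostly lower where they passed the unadjusted threshold. Of 28 interferon-stimulated genes none was higher and 11 were lower at an unadjusted p below 0.05, and DESeq2 called 0 higher and 7 lower (median -0.31). Isg15, a ubiquitin-like protein, stood at 11.9 ± 2.67 CPM in HFD and 5.7 ± 1.71 CPM in HFD+AE (log2 difference -1.06, SE 0.28, adjusted p = 0.0633). Cxcl10, a chemokine that draws T cells, stood at 7.16, 5.07 and 4.66 CPM in HFD and 1.79, 1.49 and 2.62 CPM in HFD+AE (log2 difference -1.52, SE 0.34, adjusted p = 0.0596). Among 17 cytokines, chemokines and adhesion molecules 1 was higher and 5 were lower, and DESeq2 called 0 higher and 4 lower (median -0.07, -0.34 without HFD+AE 3). Ccl2, which draws monocytes, stood at 1.87, 0.578 and 1.03 CPM in HFD and 0.312, 0.301 and 0.247 CPM in HFD+AE (log2 difference -2.005, SE 0.43, adjusted p = 0.0596). Cxcl1, which draws neutrophils, stood at 22, 56.5 and 19.1 CPM in HFD and 7.55, 5.78 and 7.54 CPM in HFD+AE, with every exercised value below every sedentary one (log2 difference -2.22, SE 0.50, adjusted p = 0.0609).

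For fibrosis and extracellular matrix 1 of 24 were higher and 6 lower at an unadjusted p below 0.05, and DESeq2 called 1 higher and 2 lower (median -0.14, -0.25 with the length trends removed). Col1a1, the main fibrillar collagen, stood at 16.7, 7.53 and 11 CPM in HFD and 2.9, 4.29 and 8.05 CPM in HFD+AE. HFD+AE 3 exceeded HFD 2, so the groups overlapped (log2 difference -1.22, SE 0.40, adjusted p = 0.0945). Dcn, decorin of stellate cells and fibroblasts, stood at 171 ± 40.7 CPM in HFD and 107 ± 10.3 CPM in HFD+AE (log2 difference -0.67, SE 0.20, adjusted p = 0.0759). Fn1, fibronectin, which hepatocytes secrete into plasma, was on the other side at 1.05 (SE 0.34, adjusted p = 0.0908).

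The marker lists give the other cells of the tissue. T and NK cell markers had none of 14 genes higher and 11 lower at an unadjusted p below 0.05, none passing edgeR's adjusted test and 11 called lower by DESeq2 (median -2.27). Averaged over these markers, log2 CPM was 0.89, -1.08 and 1.73 in the HFD libraries and -1.38, -1.68 and -0.85 in the HFD+AE libraries. HFD 1 and 3 were high and HFD 2 lay among the exercised libraries, so the low values of the exercised group were shared by 1 sedentary library. Cd8b1, of the CD8 co-receptor, stood at 1.52, 0.311 and 4.12 CPM in HFD and 0.0935, 0.0709 and 0.124 CPM in HFD+AE (log2 difference -4.36, SE 0.96, adjusted p = 0.0596), and Lck at -2.76 (SE 0.66, adjusted p = 0.0614), with HFD 2 between the exercised values.

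At the same threshold, B and plasma cell markers had 8 of 10 genes lower and none higher, and DESeq2 called 6 lower (median -1.72). The immunoglobulin genes Igkc and Jchain stood at 56.1, 18.4 and 119 CPM in HFD and 10.4, 11.8 and 17.3 CPM in HFD+AE (log2 difference -2.30, SE 0.52, adjusted p = 0.0609) and at 15 ± 9.31 CPM in HFD and 4.5 ± 1.21 CPM in HFD+AE (log2 difference -1.73, SE 0.40, adjusted p = 0.0609). Neutrophil markers, with 7 of 10 counted highly enough to test, had 5 lower and none higher, and DESeq2 called 3 lower (median -2.45). S100a9, a calcium-binding protein of neutrophils, stood at 2.74, 2.6 and 6.12 CPM in HFD and 0.374, 0.425 and 0.618 CPM in HFD+AE, low but separate (log2 difference -3.02, SE 0.64, adjusted p = 0.0574), and S100a8 at -3.31 (SE 0.80, adjusted p = 0.0614). Summed, the neutrophil markers came to 8.29, 8.18 and 15.5 CPM in HFD and 3.93, 2.59 and 3.03 CPM in HFD+AE.

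At an unadjusted p below 0.05, antigen-presenting cell markers had 5 of 10 lower and none higher, and DESeq2 called 1 lower (median -0.99). Ccr7 stood at -1.998 (SE 0.71, adjusted p = 0.11) and Cd209a at -1.96 (SE 0.72, adjusted p = 0.12). Markers of lipid-associated and recruited macrophages had 3 of 12 lower and none higher, and DESeq2 called 2 lower (median -0.65). Ccr2, the receptor that brings monocytes from blood, stood at 7.44, 2.47 and 7.58 CPM in HFD and 1.4, 2.0 and 0.741 CPM in HFD+AE (log2 difference -2.07, SE 0.44, adjusted p = 0.0596), Ly6c2, of inflammatory monocytes, at -2.11 (SE 0.63, adjusted p = 0.0780), and Spp1, osteopontin, at -0.70 (SE 0.31, adjusted p = 0.17). Trem2, the lipid receptor of lipid-associated macrophages, stood at 1.63, 0.889 and 0.729 CPM in HFD and 0.779, 1.31 and 1.3 CPM in HFD+AE (log2 difference 0.06, SE 0.51, adjusted p = 0.95), and its sign turned under several alternatives.

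Markers of Kupffer cells and macrophages were on the opposite side: 3 of 13 were higher and 0 lower at an unadjusted p below 0.05. DESeq2 called 2 higher and 0 lower (median 0.83). The list also holds general macrophage genes, such as Cd68 and Csf1r. Averaged over them, log2 CPM was 2.80, 3.99 and 2.80 in the HFD libraries and 4.58, 4.09 and 3.98 in the HFD+AE libraries, with HFD 2 just above HFD+AE 3. Cd163, the haemoglobin scavenger receptor, stood at 5.27, 10.2 and 5.54 CPM in HFD and 33.4, 26.6 and 11.5 CPM in HFD+AE (log2 difference 1.77, SE 0.53, adjusted p = 0.0790), and Folr2, a folate receptor of resident macrophages, at 2.16 (SE 0.76, adjusted p = 0.11). Markers of sinusoidal endothelium also stood higher. Of 12 genes 9 were higher and none lower, and DESeq2 called 6 higher and 0 lower (median 0.88). Averaged over the list, log2 CPM was 3.88, 4.12 and 3.61 in the HFD libraries and 4.82, 4.95 and 4.39 in the HFD+AE libraries, without overlap. Stab2, which clears hyaluronan from blood, stood at 27.7, 35.5 and 22 CPM in HFD and 76.3, 79.7 and 43.3 CPM in HFD+AE (log2 difference 1.23, SE 0.32, adjusted p = 0.0627), Kdr, the VEGF receptor 2, at 19.9 ± 5.47 CPM in HFD and 53 ± 15.1 CPM in HFD+AE (log2 difference 1.42, SE 0.37, adjusted p = 0.0639), and Eng, endoglin, at 41.9 ± 1.9 CPM in HFD and 69.3 ± 5.57 CPM in HFD+AE (log2 difference 0.73, SE 0.18, adjusted p = 0.0614).

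**Figure D5:**
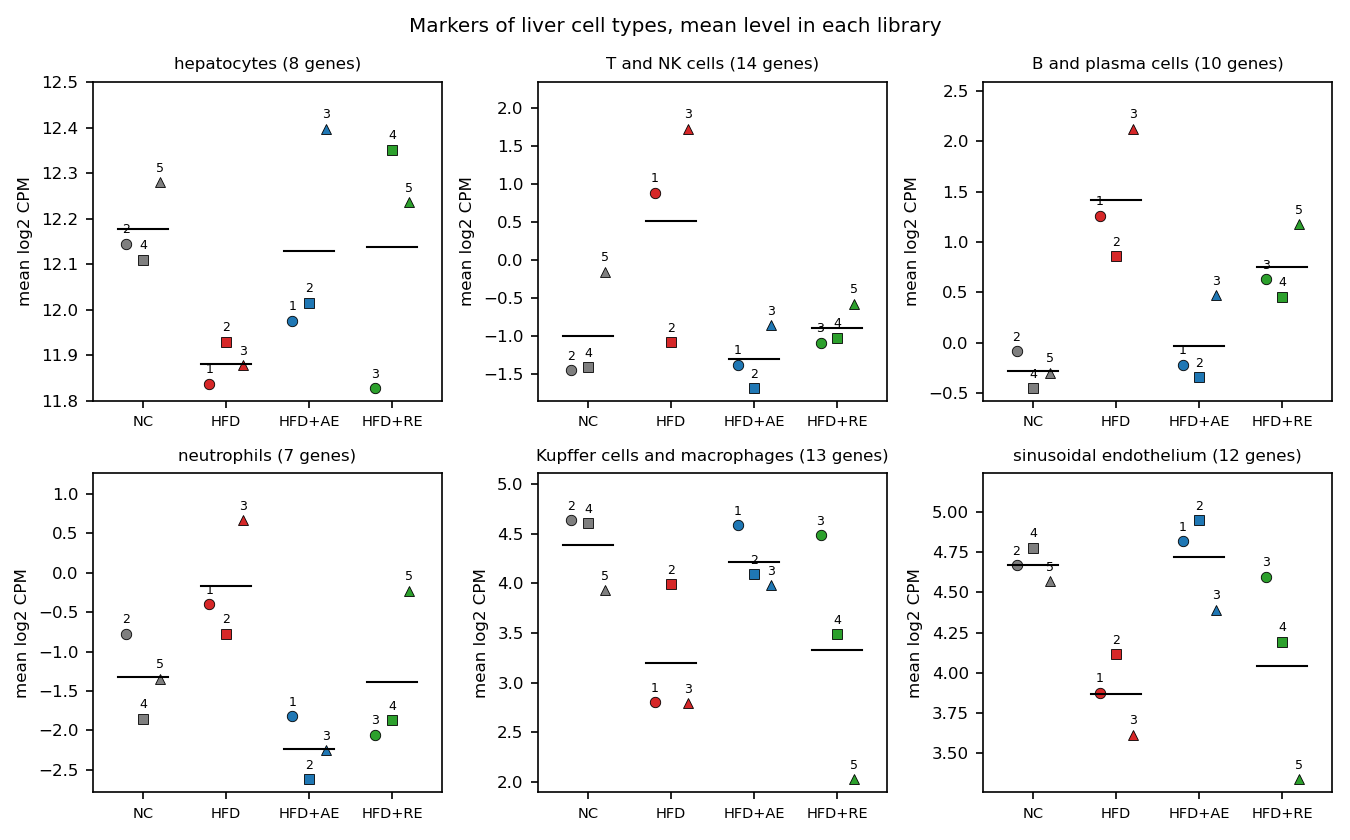
Mean log2 CPM of the tested markers of 6 cell types (y axis) in the 12 libraries by group (points, with the library number; lines, group means). HFD 1 and HFD 3 are the highest for T and NK cell markers, HFD 2 lies at -1.08, and the HFD and HFD+AE points of sinusoidal endothelium do not overlap.

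At an unadjusted p below 0.05, hepatocyte markers had 4 of 8 genes higher and none lower, and DESeq2 called 3 higher and 0 lower (median 0.43, 0.23 without HFD+AE 3). Alb stood at 49849, 60516 and 36699 CPM in HFD and 86779.6, 79324 and 82839 CPM in HFD+AE (log2 difference 0.76, SE 0.25, adjusted p = 0.0908), and Hnf4a, the master regulator of hepatocyte identity, at 585 ± 116 CPM in HFD and 871 ± 91.6 CPM in HFD+AE (log2 difference 0.57, SE 0.19, adjusted p = 0.0933). Stellate cell markers were divided, with 2 of 11 higher and 1 lower, and DESeq2 called 1 higher and 1 lower (median -0.04, -0.19 without HFD+AE 3): Reln, reelin, stood at 34.3, 34.9 and 28.5 CPM in HFD and 49.8, 55.7 and 68.3 CPM in HFD+AE (log2 difference 0.83, SE 0.24, adjusted p = 0.0729). Of 6 tested cholangiocyte markers none was higher and 2 were lower at that threshold, with no DESeq2 call (median 0.11, 0.23 with the length trends removed, -0.19 without HFD+AE 3), and Sox9 stood at -0.69 (SE 0.27, adjusted p = 0.14). Erythroid markers had 1 of 7 higher and 4 lower, and DESeq2 called 0 higher and 2 lower (median -1.39, -2.28 without HFD+AE 3). Hbb-bs, a beta globin, stood at 155, 93.6 and 210.0 CPM in HFD and 53.9, 28.5 and 92.6 CPM in HFD+AE (log2 difference -1.39, SE 0.55, adjusted p = 0.14). Haemoglobin messages come from blood, and the part of blood held in the tissue in the levels of the immune markers was not tested.

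Of 8 adipocyte markers 4 were counted highly enough to test, Cfd and Cidea were lower at an unadjusted p below 0.05, and DESeq2 called 0 higher and 2 lower (median -2.15). The other tested members were not at that threshold: Lipe, the hormone-sensitive lipase, stood at -0.26 (SE 0.27, adjusted p = 0.57) and Adrb3 at -0.24. The list median thus fell between these and the much lower Cfd and Cidea, and the list did not move as a group. None of 9 skeletal muscle markers could be tested, and 2 of 9 exocrine pancreas markers could. Of these, Cela1, an elastase, stood at 12.1, 9.67 and 11.4 CPM in HFD and 20.5, 21.8 and 24.2 CPM in HFD+AE (log2 difference 1.002, SE 0.26, adjusted p = 0.0625) and was called higher by DESeq2, and Cela2a stood at 0.156, 0 and 0.0286 CPM in HFD and 0.265, 0.159 and 0.247 CPM in HFD+AE (log2 difference 1.84, SE 0.88, adjusted p = 0.20).

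Whether a gene differed between the kinds of exercise was tested directly, HFD+RE against HFD+AE, in the same edgeR model. No gene passed (smallest adjusted p = 0.518), 1468 genes (8.02%) had an unadjusted p below 0.05, and DESeq2 called 24, which does not show that the kinds of exercise act alike. The called genes had differences of 1.11 (SE 0.58) for Hsd3b5, 0.43 (SE 0.27) for Cidec, -0.46 (SE 0.25) for Themis, -0.33 (SE 0.15) for Tgfbr3, -0.80 (SE 0.29) for Cyp2c54, 0.29 (SE 0.32) for mt-Nd4l, 0.34 (SE 0.29) for Gm13577 and 0.45 (SE 0.19, unadjusted p = 0.032) for Gm9800, HFD+RE minus HFD+AE on the log2 scale. Gm47664, with 0 counts in each HFD+AE library, had 2, 11 and 6 counts in HFD+RE 3, 4 and 5 (unadjusted p = 0.00084). Apart from it, the widest gaps by unadjusted p among the named genes were those of Nr4a1 at -2.08 (SE 0.40, unadjusted p = 0.00014), Igfbp1 at -2.61 (SE 0.52, unadjusted p = 0.00022), Ablim3 at -0.99 (SE 0.20, unadjusted p = 0.00022) and Pdk4 at -1.78 (SE 0.37, unadjusted p = 0.00033). For Nr4a1, Igfbp1 and Ablim3 the HFD+AE libraries were above all HFD+RE and all HFD libraries. Nr4a1 was at 2.33, 1.38 and 1.5 CPM in HFD+RE 3, 4 and 5 and Ablim3 at 15.9, 13.8 and 16.3 CPM. Scd1 differed the other way, at 3278, 5379 and 8093 CPM in HFD+RE (1.45, SE 0.34, unadjusted p = 0.00087). None of these passed the adjustment, and without HFD+AE 3 and HFD+RE 3 the direct comparison had 4170 calls. Those libraries, at -0.03 and 0.22, stood apart from their groups in the correlation of relative level with gene length. The libraries left were split by it, with HFD+AE 1 and 2 at 0.29 and HFD+RE 4 and 5 at -0.29 and -0.31. In the 4170 calls this measure and the kind of exercise cannot be told apart.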

How the data were processed

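Liver RNA was sequenced in 12 libraries of 4 groups with 3 libraries each. The authors deposited read counts per gene, made by featureCounts 2.0.6 per the file header, after fastp and HISAT2 2.2.1 on mm10 per the submitters' processing notes. Strand setting, annotation release and treatment of multi-mapping reads were not given in the sources used here. The count totals of the compared libraries ran from 44373214 to 65434486. Genes passing filterByExpr (minimum count 10) were fitted in edgeR 4.0.16 (R 4.3.3) with TMM scaling and group means over all 12 libraries, and robust quasi-likelihood tests were adjusted by Benjamini-Hochberg at 0.05. CPM are counts relative to the TMM-scaled library total. DESeq2 1.42.0, other filters, scalings and left-out libraries were alternatives. The code of the fit was also run on simulated counts, and no result given here rests on that run. Sequences came from GENCODE M21 and were compared with blastn 2.17.0.

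The rule for named genes took up to 10 called genes that rose and 10 that fell by size of change, without overlap of the groups and above a mean log2 CPM of 1, leaving out predicted genes. These were filled up by the smallest p, and the 2 members with the smallest p of each list and 25 genes fixed by name were added. The rule took 127 genes, of which 5 are not reported here. List members beyond these, the mitochondrial genes other than mt-Nd4l, and the genes named as copies or hosts were chosen after their values were seen. The members and the gene lists were chosen with earlier results of these data known. Within a group, no pair of libraries was a duplicate: the chi-square over 17086 genes was at least 63.6 per degree of freedom.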

Additional observations from a re-analysis of the deposited data

How the results depend on the processing

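The 9 calls of HFD+AE against HFD became 2105 by DESeq2, 953 without the low-count filter (413 higher, 540 lower), 649 with only the 2 groups, 95 with length trends removed, 445 with length and GC trends removed (chosen after seeing the data), 1 at a 2-fold threshold, 4253 without HFD+AE 3 and HFD+RE 3, and 3 without NC (also chosen after seeing the data). Leaving out 1 library gave 0 to 1930. A replicate block by the shared numbers gave 2100, and with length trends removed 1505. Nothing in the labels says that a number is shared by mice, so the numbers were not taken to pair the libraries. In their deviations from the group means, same-numbered HFD and HFD+AE libraries correlated at -0.12, 0.11 and 0.09 across genes. Pairs with different numbers ran from -0.15 to 0.11, and with 3 libraries per group such values cannot decide on pairing. HFD+RE against HFD+AE, with 0 calls, had 24 by DESeq2, 2 without the filter, 4170 without HFD+AE 3 and HFD+RE 3, and 0 to 2 with 1 library left out. HFD+AE 3 and HFD+RE 3 stood apart from the rest of their groups in the correlation with gene length. The part of this in the counts without both was not tested.

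Of 155 named genes under 23 alternatives, 29 of 3561 values changed sign, and the cause was not tested. Fasn ran from -0.36 to 0.13 with 1 library left out (0.12 without HFD 1). Cd36 ran from -0.33 to 0.25 in the same way (0.01 without HFD+AE 3) and stood at 0.12 with length and GC trends removed and 0.023 without HFD+AE 3 and HFD+RE 3. Ppargc1a ran from -0.050 to 0.37 and stood at -0.035 with length trends removed, at -0.045 when the replicate block was added to that, and at -0.092 with length and GC trends removed. In mt-Co1 the range was -0.28 to 0.29, with -0.27 without HFD+AE 3 and HFD+RE 3. Hmgb1 ran from -0.0038 to 0.22 and stood at -0.0071 with length and GC trends removed, a setting under which mt-Cytb stood at 0.15 and mt-Nd4 at 0.34. Srebf1 ran from -0.037 to 0.44 with 1 library left out and stood at -0.021 without HFD+AE 3 and HFD+RE 3. Igf1 ran from -0.047 to 0.36 and stood at -0.070 with length trends removed, -0.079 with the replicate block added and -0.12 with length and GC trends removed. Trem2 ran from -0.17 to 0.47 (-0.059 without HFD 2, -0.065 without HFD+AE 2, -0.060 without HFD+AE 3) and stood at -0.029 with length trends removed, -0.021 with length and GC trends removed and -0.043 without HFD+AE 3 and HFD+RE 3.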
